A study of Oryza sativa with 12 samples.

Results

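In these rice seedlings, 89 loci were expressed in the cultivar IR64 and listed at 0 in every library of the cultivar N22. They were chosen by their measured FPKM values, as the rows of the deposited expression files that were at 0 in all 6 N22 libraries and averaged 10 FPKM or more over the 6 IR64 libraries. FPKM is the number of fragments scaled by transcript length and by the fragments mapped in the library, and a row is 1 locus as the authors' assembly drew it. The 89 loci come from 39718 rows in all, of which 11799 averaged 10 FPKM or more in IR64. The difference between the cultivars at these loci is therefore a description and carries no test.

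Oryza sativa seedlings 21 days old stood for 6 h in RO water (control) or in 20% PEG 6000, an osmotic agent that makes water harder for roots to take up and serves as the drought treatment. IR64, an indica cultivar, is labelled drought-sensitive, and N22, an aus cultivar, drought-tolerant. Each of the 4 groups (IR64 control, IR64 drought, N22 control and N22 drought) held 3 libraries. The labels name the source as seedlings and no organ, and markers of root (Lsi1, Lsi2 and RCc3) and of leaf (RBCS2, RBCS4, RCA, CAB1R and CAB2R) were above 0 in all 12 libraries. Libraries listed 30625 to 32107 rows each, with FPKM values that summed to 684525 to 761822. Read numbers are not given, so the depth behind each value is unknown. Whether the 3 libraries of a group came from separate cultures is not stated in the sample labels, although the design text calls them biological replicates, and the p-values given here speak for the variation among these libraries alone.

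Rice varieties differ in which genes their genomes hold, and indica and aus lines carry and lack sequence relative to the japonica reference Nipponbare, on which the RGAP annotation is built. Reads are assigned only to sequence that the reference holds, so a locus can be found in IR64 here only where the reference has it too. An annotated rice locus carries a name of the form LOC_Os, then the chromosome, then a number that rises along it. A locus assembled from reads outside the annotation has no such name. Whether a value of 0 in N22 stands for a locus that N22 lacks, for a sequence too unlike the reference to be aligned, for a locus that is not transcribed, or for a failed estimate cannot be told apart from these values. In bulk seedlings, fewer cells of a type and less RNA per cell cannot be told apart either.

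The 89 loci were mostly of moderate level, with a few very abundant ones. Their mean FPKM over the 6 IR64 libraries ran from 10.2 to 1173, with a median of 21.1 and quartiles of 15.2 and 58.2. The 11799 rows of 10 FPKM or more in IR64 had a median of 25.4 and quartiles of 15.6 and 48.3. By mean level, 39 of the loci lay between 10 and 20 FPKM, 37 between 20 and 100, and 13 at 100 or more. Without the minimum of 10 FPKM, 3606 rows were at 0 in all N22 libraries, and 2746 of those averaged under 0.1 FPKM in IR64.

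The 2 most abundant loci, which have no locus name, varied widely between replicates. The first stood at 1035, 1710 and 190 FPKM in the control libraries and 1542, 1764 and 794 in the drought libraries. The second stood at 621, 466 and 1141 in control and 1101, 136 and 2184 under drought, so that its highest and lowest values were both drought libraries. The third, LOC_Os04g30290, was the only named locus among the 10 most abundant, with 577, 999 and 807 FPKM in control and 502, 287 and 368 under drought. The fourth was steadier, at 480, 588 and 502 FPKM in control and 508, 623 and 642 under drought. The next most abundant named loci, LOC_Os05g10414, LOC_Os06g05440, LOC_Os09g10201 and LOC_Os01g37950, averaged 115, 112, 75.7 and 72.0 FPKM.

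The 89 loci together made up a similar small share of every IR64 library. Their values summed to 6092 to 8075 FPKM per library, which was 0.890%, 1.15% and 0.940% of all FPKM in the control libraries and 0.999%, 1.00% and 1.13% in the drought libraries. The 2 most abundant loci supplied 20.2% to 37.6% of that sum and the 10 most abundant 61.0% to 72.4%. The opposite case, rows at 0 in all 6 IR64 libraries and at 10 FPKM or more in N22, numbered 110 and summed to 9701 to 17845 FPKM per N22 library.

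**Figure D1:**
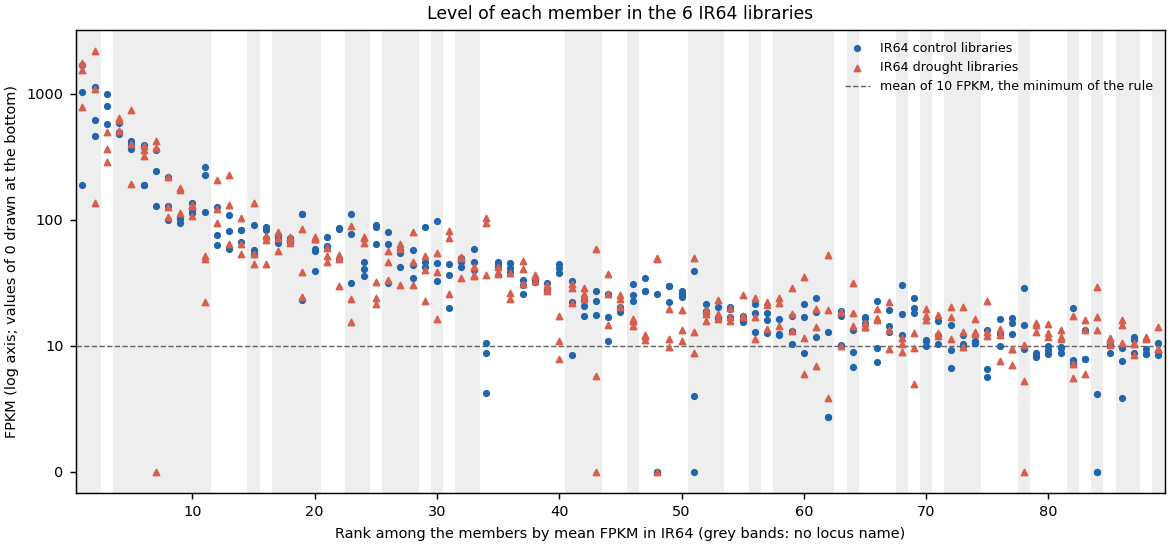
FPKM of each of the 89 loci in the 3 control (circles) and 3 drought (triangles) libraries of IR64, on a log axis with values of 0 drawn at the bottom. The loci are ordered by mean FPKM, grey bands mark the 48 without a locus name, and the dashed line is the minimum mean of 10 FPKM. The spread between libraries differs from locus to locus, the 2 most abundant loci spread widely, and 6 loci have a value of 0 in an IR64 library.

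The plot of levels by rank shows how steadily most of these loci were found in IR64. Of the 89, 83 were listed in all 6 IR64 libraries, 4 in 5 libraries, 1 in 4 and 1 in 3. The locus in 3 libraries was LOC_Os10g04520, at 0, 25.8 and 0 FPKM in control and 49.1, 49.4 and 0 under drought. An unnamed locus was at 128, 243 and 356 FPKM in control and at 0, 426 and 373 under drought, so a locus of high level could be at 0 in a single library. Of all 11799 rows of 10 FPKM or more in IR64, 15 were at 0 in some IR64 library, and 6 of those 15 are among the 89.

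The loci were less even between replicates than other loci of like level. Their median coefficient of variation was 20.5% in the 3 control and 26.0% in the 3 drought libraries. Over the 11635 rows of 10 FPKM or more in IR64 that all 12 libraries list, it was 8.42% and 13.1%. The named loci varied less, with 14.3% and 25.7%, than the unnamed ones, with 25.9% and 31.7%. Unnamed rows listed in all 12 libraries stood at 11.6% and 16.2%.

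Some of the 89 hardly varied over the 6 IR64 libraries, drought included. Over the 83 loci listed in 6 IR64 libraries, the ratio of the highest to the lowest library ran from 1.11 to 24.6, with a median of 2.14. It was below 1.5 for 16 loci and above 5 for 9. The steadiest named loci, picked out after their values were seen, were LOC_Os12g41430 at 32.3 to 36.5 FPKM and LOC_Os05g10570 at 27.2 to 31.8 FPKM.

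Rows close to the limit of the rule in N22 were fewer than those that met it. Of the 11799 rows of 10 FPKM or more in IR64, 11626 (98.5%) reached 1 FPKM in at least 1 N22 library. Another 42 peaked between 0.1 and 1 FPKM in N22, 42 lay above 0 and under 0.1, and 89 were at 0. Just outside the rule on the N22 side were the row LOC_Os02g01870,LOC_Os02g01880 (16.0 FPKM in IR64, at most 0.00895 in N22), LOC_Os04g27190 (17.5 and 0.0101) and LOC_Os07g47860 (19.0 and 0.0107). In all, 27 rows of 10 FPKM or more in IR64 were listed by exactly 1 N22 library, at 0.00895 to 59.1 FPKM. Of these, 11 were listed by N22 drought 3 alone, at 0.0112 to 0.0784 FPKM, and the highest value came from N22 control 2. On the IR64 side, the loci just inside the rule averaged 10.2 FPKM (LOC_Os04g51080 and 2 unnamed ones), and those just outside were LOC_Os01g21130 at 9.98, the row LOC_Os02g37770,LOC_Os02g37780 at 9.86 and LOC_Os05g25650 at 9.69.

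Most of the 89 loci had no place in the annotation, a feature that the rule did not use. No locus name was given for 48 of them (53.9%), while 39 carried a single name and 2 carried several. Of the 11799 rows of 10 FPKM or more in IR64, 226 (1.92%) had no name, and of all 39718 rows 2467 (6.21%). Turned round, 48 of the 226 unnamed rows of that level (21.2%) were at 0 in N22, against 41 of the 11573 named rows (0.354%). The 110 rows of the opposite case, present in N22 and at 0 in IR64, had 48 without a name (43.6%).

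The unnamed loci also stood at particular places in the authors' numbering. Their identifiers follow the chromosomes, running through the locus numbers of each chromosome in a first and then a second pass, after which comes an end block almost without names. Locus numbers did not fall between successive named rows in 99.6% of cases. The end blocks held 1399 rows, 1396 of them unnamed, and 38 of the 89 loci, or 2.72% of the rows in these blocks. The first pass held 17 of the 89 among 19135 rows (0.0888%), and the second 34 among 19074 (0.178%). All 38 in the end blocks were unnamed, while the passes held only 537 and 524 unnamed rows. These shares therefore reflect the lack of a name as well as the place. What the passes and end blocks stand for is not stated in the files. Of the 48 unnamed loci, 2 had another of the 89 at the next identifier and 21 had another unnamed one within 20 identifiers. The end blocks are short, at 74 to 173 rows each, and no like count was made for other rows. These 2 counts therefore do not show that the loci lie closer than others.

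All chromosomes held some of the 89 loci. By the same numbering, chromosomes 4 and 12 held 13 each, chromosome 5 held 11, chromosome 2 held 9 and chromosome 1 held 8. The fewest were the 3 each on chromosomes 7 and 8. Chromosome 12 held its 13 among 2602 rows, and chromosome 1 its 8 among 5244.

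Locus names of 9 of the 89 also appear in other rows, and there N22 was not always at 0. LOC_Os02g47500 is the clearest case: its row among the 89 averaged 41.8 FPKM in IR64, while another row of the same name stood at 12.7, 12.5 and 13.3 FPKM in N22 control and 7.82, 7.54 and 9.11 in N22 drought. That other row averaged 0.909 FPKM in IR64, so both cultivars had transcripts under this name, each mainly in a different row. Another row of LOC_Os02g57930 was listed in all 6 N22 libraries at a mean of 0.494 FPKM and at 0 in IR64. LOC_Os10g04520 is also part of a row that joins it with LOC_Os10g04510 and LOC_Os10g04540, at a mean of 3.88 FPKM in IR64 and 3.85 in N22. For LOC_Os01g37950 a second row was listed in N22 control 3 alone, at 0.790 FPKM. In the remaining 5 (LOC_Os04g24770, LOC_Os01g41565, LOC_Os10g24170, LOC_Os04g30290 and LOC_Os12g09890) the other row averaged 0.00353 FPKM or less in N22. Where rows of the same name share sequence or lie on opposite strands, their reads cannot be told apart here. With rows of the same name summed before the rule was applied, 84 loci met it.

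Along the chromosomes, the 41 named loci were scattered, but in a few places they adjoined each other. By locus number, 4 of the 41 lay in 2 runs with steps of at most 50 between neighbours, LOC_Os05g10310 with LOC_Os05g10330 and LOC_Os06g05420 with LOC_Os06g05440. For the sake of scale, 11419 of 12315 loci of 10 FPKM or more in IR64 (92.7%) lie in runs of that kind, since they are far denser. Both runs and the surroundings of LOC_Os02g37800, a locus that changed with drought, are shown by library, and the surroundings of LOC_Os02g37800 were chosen after their values were seen.

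**Figure D2:**
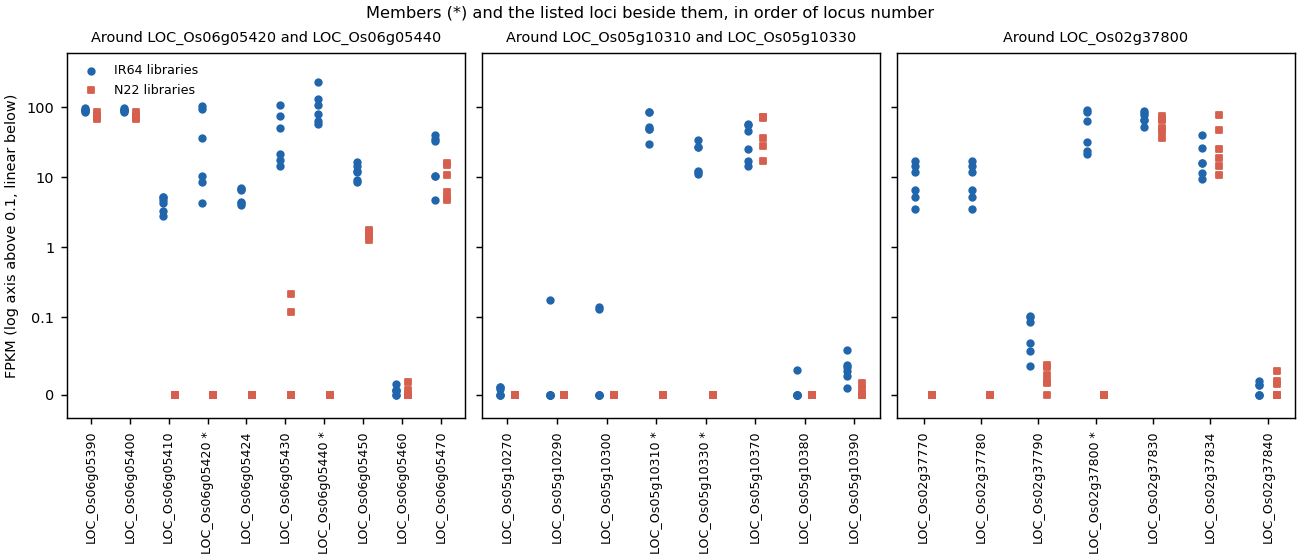
FPKM in the 6 IR64 (circles) and 6 N22 (squares) libraries at the loci around LOC_Os06g05420 and LOC_Os06g05440, LOC_Os05g10310 and LOC_Os05g10330, and LOC_Os02g37800, in order of locus number. The axis is logarithmic above 0.1 and linear below, asterisks mark loci among the 89, and a row that names 2 loci is drawn at both. On chromosome 6 several adjoining loci are at or near 0 in N22, with loci expressed in both cultivars on either side.

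On chromosome 6 the loci at 0 in N22 were joined by expressed ones outside the rule. From LOC_Os06g05410 to LOC_Os06g05440, all 5 listed loci were at 0 or near it in N22. LOC_Os06g05410 averaged 4.28 FPKM in IR64 and LOC_Os06g05424 averaged 5.53, both with 0 in N22 and both below the minimum of 10. LOC_Os06g05420 averaged 43.2 FPKM and LOC_Os06g05440 averaged 112. Between them, LOC_Os06g05430 averaged 47.8 FPKM in IR64 and was listed in 2 of the 6 N22 libraries, at 0.216 and 0.117 FPKM, which keeps it out of the 89. The stretch lay between loci listed in both cultivars. The row that ends at LOC_Os06g05400 averaged 91.53 FPKM in IR64 and 75.02 in N22, and LOC_Os06g05450 averaged 12.2 and 1.56. LOC_Os06g05460 was barely expressed, at 0.0052 and 0.0038 FPKM.

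On chromosome 5, LOC_Os05g10310 averaged 58.5 FPKM and LOC_Os05g10330 averaged 20.8. The listed loci before them, LOC_Os05g10270, LOC_Os05g10290 and LOC_Os05g10300, were also at 0 in all N22 libraries, but averaged 0.0046 to 0.045 FPKM in IR64. The next locus, LOC_Os05g10370, was expressed in both cultivars at 36.1 FPKM in IR64 and 49.9 in N22, and it parts the run from LOC_Os05g10414, again at 0 in N22. On chromosome 2, the row LOC_Os02g37770,LOC_Os02g37780 averaged 9.86 FPKM and LOC_Os02g37800 averaged 53.4, both with 0 in N22. LOC_Os02g37790 between them was barely expressed, at 0.077 FPKM in IR64 and 0.022 in N22. LOC_Os02g37830 stood at 72.4 FPKM in IR64 and 57.1 in N22. On chromosome 12, the number of LOC_Os12g43400 falls between those of a row that joins LOC_Os12g43380, LOC_Os12g43390, LOC_Os12g43410 and LOC_Os12g43430. That row averaged 414 FPKM in IR64 and 101 in N22, and overlap or antisense reads between the 2 rows cannot be told apart.

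Absence from N22 was looked for in the nearest listed locus on either side of each of the 41 named loci. Neighbours that are themselves among the 89, at 0 in N22 by the choice, were left out. Of the 80 others, 20 (25%) were listed in IR64 and in no N22 library, against 5.07% of 22973 neighbours of the other 11497 loci of 10 FPKM or more in IR64. The opposite, listed in N22 alone, held for 8 (10%) against 5.49%. At least 1 neighbour listed in IR64 alone was found beside 18 of the 41 loci (43.9%), against 9.70% of the other loci. Many of these neighbours were barely expressed. Over all rows, 23.8% of the 11516 under 0.1 FPKM in IR64 were at 0 in every N22 library, and 3.96% of those from 1 to under 5. Of the 80 neighbours, 35 reached 1 FPKM in either cultivar, against 16612 of 22986 beside the other loci, any of the 89 included. The shares were not matched for level, so they do not set these places apart from others of low expression.

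Among those neighbours at 1 FPKM or more in either cultivar, the cultivars often differed too. Of 35 such neighbours, 14 (40.0%) were higher in IR64 by at least 1 on the log2(FPKM + 1) scale, 4 were higher in N22 by as much, and 17 (48.6%) lay within 1 either way. The 14 loci are 13 rows, since LOC_Os12g43390 and LOC_Os12g43410, on either side of LOC_Os12g43400, share 1 row. LOC_Os06g05410, LOC_Os06g05424, LOC_Os06g05430 and LOC_Os06g05450, also among the 14, lie in or beside the chromosome 6 stretch. Of 16612 neighbours of the other loci, 13 of them among the 89, 2.83% were higher in IR64 by that margin, 3.27% were higher in N22, and 93.9% lay within it. The median difference, IR64 minus N22, was 0.26 beside the 41 loci and -0.0012 beside the others. These are counts of loci that share chromosomes and libraries, and no test was made of them. Within 50 locus numbers, 6 of the 41 loci (14.6%) had another locus, not among the 89, at 0 in N22 and at 1 FPKM or more in IR64, against 175 of 11496 (1.52%).

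**Figure D3:**
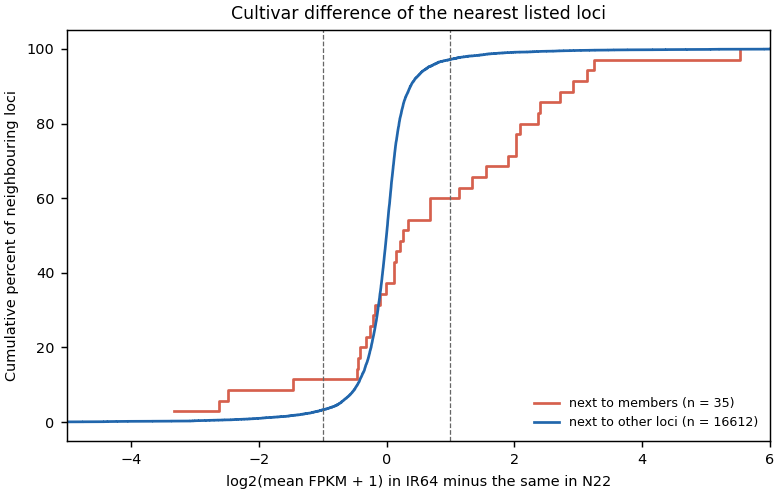
Cumulative percent of neighbouring loci by the difference between cultivars, log2(mean FPKM + 1) in IR64 minus the same in N22, for the 35 neighbours of the named loci among the 89 and for 16612 neighbours of other loci of 10 FPKM or more in IR64. The dashed lines mark a difference of 1 either way. The curve for the neighbours of the 89 climbs slowly on the right, where 40.0% lie beyond 1, against 2.83% of the others.

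The drought treatment acted in the IR64 libraries: RAB16A and OsLEA3, a dehydrin and a late embryogenesis abundant protein induced by water loss, summed to 4.52 to 8.66 FPKM in control and 370 to 1593 under drought. Leaf markers summed to 6997 to 9459 FPKM in control and 2061 to 3060 under drought, and root markers to 551 to 598 and 396 to 491. Members of both lists went different ways. RBCS2 made up most of the leaf sum, at 5458, 7490 and 7237 FPKM in control and 2093, 1799 and 1247 under drought. CAB1R stood higher under drought, at 270, 215 and 209 FPKM against 80.3, 33.1 and 58.3, CAB2R also lay higher, and the root marker Lsi2 overlapped between the groups. The rule used the mean over both treatments, so the drought contrast within IR64 was tested for the 89 loci in a fit over all 22795 rows with enough expression in IR64. All 89 were in that fit, although LOC_Os10g04520 and XLOC_018761 passed the filter through the drought libraries alone, which favoured a rise at both.

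Under drought 2 of the 89 loci rose and 7 fell, by limma's moderated test with an adjusted p up to 0.05 and a log2 change of 1 or more in size. The part of the leaf and root markers, whose sums were lower and whose members were mixed in the drought libraries, was not tested in these calls. That is 2.25% higher and 7.87% lower, where over all rows tested 4.39% were higher and 4.36% lower. Taken in either direction the share was 10.1% against 8.75% of all rows, close to the background. The counts for the 89 do not allow for the selection by mean level, which favoured changes at loci under 10 FPKM in 1 treatment. Among the 11795 tested rows of 10 FPKM or more in IR64, nearer in level, 659 were higher and 602 lower. With the replicate number as a block, 4 rose and 6 fell, beside 1069 and 1017 of all 22795 rows. Without drought 3, 4 rose and 8 fell, beside 1383 and 1335 of 22614 rows. Without control 2, 4 fell, beside 827 of 22545 rows. Without the filter on low values 4 fell too, beside 907 of 36064 rows. By the adjusted p alone, 17 of the 89 (19.1%) passed, against 27.7% of all rows and 3831 of those 11795. Drought and control values did not overlap at 29 of the 89 loci (32.6%), 15 with drought above and 14 with drought below, against 47.5% of all rows, 23.2% above and 24.3% below.

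The estimated change lay above 0 at 47 loci and below 0 at 42. The median log2 change was 0.02, with quartiles of -0.32 and 0.49, while over all rows tested it was -0.0032. With quantile scaling the median of the 89 was -0.017, and leaving out 1 library gave -0.0066 to 0.14. Estimates were less exact than elsewhere, with a median standard error of 0.26 against 0.14 over all rows. Of the 48 unnamed loci 1 was called higher and 1 lower (2.08% each), and of the 41 named ones 1 higher (2.44%) and 6 lower (14.6%). Over all rows tested the shares were 4.39% higher and 4.36% lower. The median standard error was 0.31 for the unnamed loci and 0.21 for the named ones. Among the named falls, LOC_Os04g30290, LOC_Os12g43400 and LOC_Os12g31690 did not hold in every alternative. The difference between the 2 kinds was not tested.

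LOC_Os06g05420, at the core of the chromosome 6 stretch, was the locus with the greatest rise among the named ones. It stood at 4.24, 8.72 and 10.6 FPKM in control and 95.1, 104 and 36.3 under drought, a mean of 7.85 ± 3.26 against 78.6 ± 36.9 (SD, n = 3 each). All drought libraries were above all control libraries, with drought 3 well below the other two. The log2 change was 3.11 (SE 0.47, limma adjusted p = 0.0065). The control mean of LOC_Os06g05420 lay below the minimum mean of the rule, which the locus met through the drought libraries. That selection favoured a rise, and limma's test does not allow for it. Drought 3 was also the lowest IR64 drought library in RAB16A, at 172 FPKM beside 455 and 730, and what part this has in the level of LOC_Os06g05420 was not tested.

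Its neighbours moved to different degrees. LOC_Os06g05430 rose from 17.5, 14.4 and 21.4 FPKM to 74.5, 108 and 50.4, a log2 change of 2.02 (SE 0.29, limma adjusted p = 0.0055). LOC_Os06g05440, with 59.0, 109 and 81.5 FPKM in control and 130, 229 and 64.0 under drought, had overlapping groups and missed the threshold (log2 change 0.62, SE 0.47, limma adjusted p = 0.359). LOC_Os06g05424 changed by 0.57 (limma adjusted p = 0.0076), short of the minimum change. Beyond the stretch, LOC_Os06g05470, which both cultivars expressed, stood at 4.80, 10.6 and 10.6 FPKM in IR64 control and 35.4, 40.7 and 33.0 in IR64 drought.

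The other locus that rose, the unnamed XLOC_018761, was listed in 1 of the 3 control libraries. It was at 4.16, 0 and 0 FPKM in control and 13.2, 29.3 and 17.1 under drought. Its mean was 1.39 FPKM in control and 19.9 under drought. It thus passed the filter, and reached the minimum mean of the rule, through the drought libraries alone. That selection favoured a rise, and limma's test does not allow for it. The groups did not overlap, and the fitted log2 change was 3.52 (SE 0.68, limma adjusted p = 0.0131). With 2 control values at 0 that change depends on the pseudocount, and it was 5.76 with 0.1 in place of 1.

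The most abundant locus that fell was LOC_Os04g30290, from 795 ± 211 to 386 ± 109 FPKM (SD, n = 3 each). Its highest drought library, at 502 FPKM, was below its lowest control library, at 577. The log2 change was -1.04 (SE 0.28, limma adjusted p = 0.0361), close to the minimum change. With the replicate number as a block the adjusted p was 0.0696, so the call did not hold there. It was lost as well without control 2 (0.107), control 3 (0.108), drought 2 (0.0820) or drought 3 (0.0608), each a limma adjusted p.

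The largest fall was that of the unnamed XLOC_057581, with 115, 226 and 263 FPKM in control and 52.1, 22.3 and 48.8 under drought (log2 change -2.27, SE 0.42, limma adjusted p = 0.0118). The highest drought value was less than the lowest control value.

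LOC_Os12g09890 fell from 41.4, 38.1 and 44.2 FPKM to 7.83, 10.99 and 17.2, again with no overlap (log2 change -1.76, SE 0.25, limma adjusted p = 0.0058).

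LOC_Os02g37800 and a nearby row, beyond the barely expressed LOC_Os02g37790, fell together on chromosome 2. LOC_Os02g37800 stood at 91.3, 64.0 and 87.3 FPKM in control and 21.5, 24.2 and 32.4 under drought (log2 change -1.60, SE 0.20, limma adjusted p = 0.0040). The row LOC_Os02g37770,LOC_Os02g37780 stood at 17.2, 12.01 and 14.7 FPKM and 5.21, 6.57 and 3.53 (log2 change -1.37, SE 0.22, limma adjusted p = 0.0072). In both, the control and drought libraries were apart. LOC_Os02g37830, expressed in both cultivars, changed by -0.43 in IR64 and was not called.

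LOC_Os05g10330 was the most even of the loci that fell, at 27.4, 34.7 and 27.3 FPKM in control and 12.3, 12.1 and 11.2 under drought (log2 change -1.26, SE 0.12, limma adjusted p = 0.0023). Its partner in the run, LOC_Os05g10310, stood at 48.8, 85.8 and 85.4 FPKM in control and 29.6, 52.9 and 48.6 under drought. Those groups overlap, and the change of -0.73 (SE 0.30) missed the threshold (limma adjusted p = 0.118). All 3 same-numbered pairs were lower under drought, and with the replicate block the limma adjusted p was 0.0095, with the change still short of 1 in size. LOC_Os05g10370 beside them, present in both cultivars, fell by 1.45 on the log2 scale in IR64 (limma adjusted p = 0.0059), and LOC_Os05g10414 beyond it changed by 0.64 (SE 0.36, limma adjusted p = 0.223).

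The remaining pair of calls, both on chromosome 12, lay close to the thresholds. LOC_Os12g43400 stood at 22.1, 29.8 and 29.9 FPKM in control and 9.77, 11.3 and 19.7 under drought (log2 change -1.002, SE 0.26, limma adjusted p = 0.0338). LOC_Os12g31690 stood at 23.8, 19.9 and 18.2 FPKM in control and 12.7, 4.99 and 9.62 under drought (log2 change -1.17, SE 0.30, limma adjusted p = 0.0322). In each, the highest drought value was below the lowest control value. LOC_Os12g31690 averaged 9.10 FPKM under drought, so it met the minimum mean of the rule through the control libraries, which favoured a fall. Leaving out any control library ended both calls, with limma adjusted p-values of up to 0.107 for LOC_Os12g43400 and 0.103 for LOC_Os12g31690. Leaving out drought 2 ended both too, for LOC_Os12g31690 through a log2 change of -0.83 (limma adjusted p = 0.0226). The call of LOC_Os12g43400 was also lost without drought 1, and with median-of-ratios scaling through a change of -0.989 (limma adjusted p = 0.0377).

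**Figure D4:**
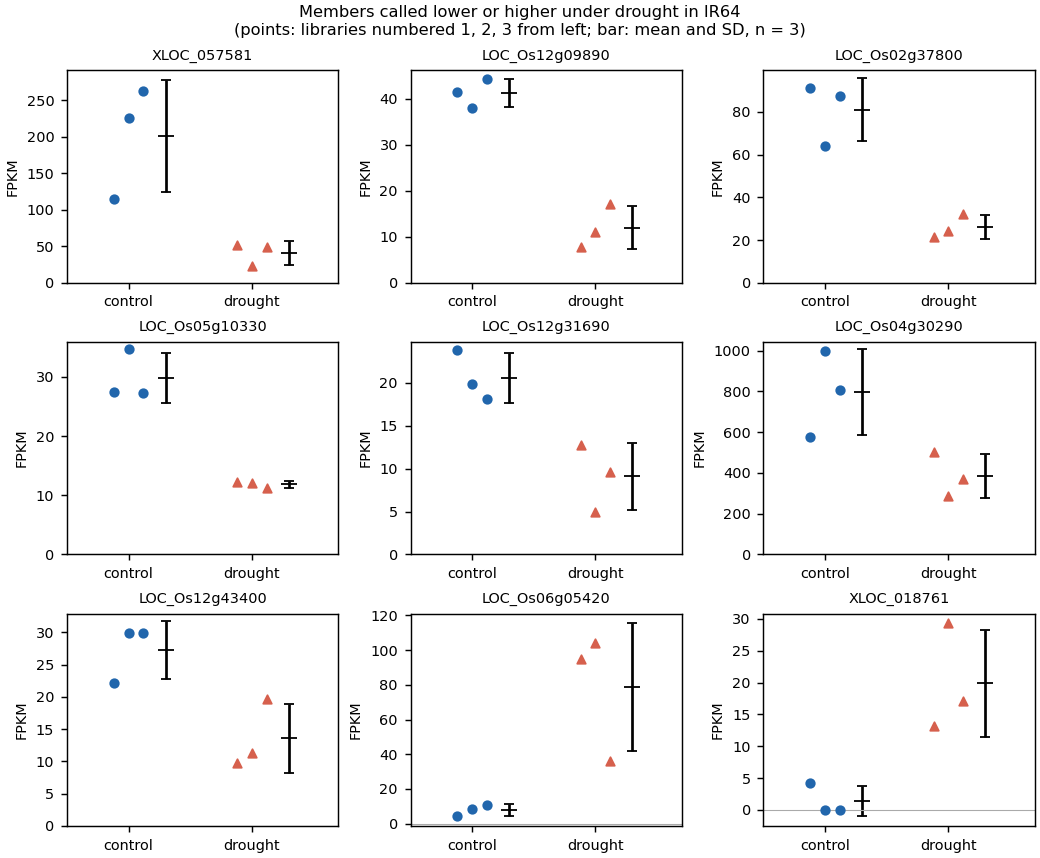
FPKM of the 7 loci that fell and the 2 that rose under drought in IR64, with the 3 control (circles) and 3 drought (triangles) libraries in the order of their numbers and bars for mean and SD (n = 3). Each panel has its own axis. In every panel the control and drought libraries do not overlap.

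The panels of called loci differ widely in level, from XLOC_018761 at a control mean of 1.39 FPKM to LOC_Os04g30290 at 795. Of the 80 loci that were not called, 8 passed the adjusted p but changed by less than 1. Among these, LOC_Os10g34083 (-0.82) and LOC_Os11g20160 (-0.70) had the lowest changes of the named ones, and the row LOC_Os06g25470,LOC_Os06g25500 (0.69) the highest. LOC_Os11g20160 averaged 8.68 FPKM under drought and the row LOC_Os06g25470,LOC_Os06g25500 averaged 8.39 in control, so the rule favoured both changes. A further 7 of the 89 had a change of at least 1 in size without passing the adjusted p, with standard errors of 0.33 to 2.297. LOC_Os10g04520, with a log2 change of 2.19 and a standard error of 1.94, was the only named locus of these.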

How the data were processed

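The 12 libraries were grouped by the submitters' labels. The deposited values are FPKM, which the authors estimated with Cufflinks 2.2.1 after alignment with TopHat2 2.1.1 to RGAP 7.0, indexed with bowtie 2.3.3.0, per the series design text, which also names NGSQC Toolkit 2.3.3 for read quality. That text also mentions imputation with missForest, without saying whether the deposited values hold imputed ones. Reads that do not match the reference well are lost at alignment, which bears on any value of 0.

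A row missing from a library counted as 0, and values were not scaled further. Rows with at least 1 FPKM in 2 of 3 libraries of an IR64 group were fitted as log2(FPKM + 1) with limma 3.58.1 (R 4.3.3) with an intensity trend, on the 6 IR64 libraries alone, since values of 0 in N22 would shrink the spread. Fold changes on this scale understate those of low loci. Tests were two-sided with Benjamini-Hochberg adjustment over the 22795 rows. The thresholds (adjusted p of 0.05, log2 change of 1) are those of the design text. On simulated data for this contrast with 22795 rows, 88% of 100 rows changed by 1.5 and 95% of 100 changed by 3 on the log2 scale were recovered, with 5 false calls. The changed rows were drawn from those with a control level above about 10 FPKM. Tested rows of 10 FPKM or more in IR64 had a median standard error of 0.13, against 0.26 for the 89 loci. Recovery among the 89 was not measured. Software further included pandas 2.3.3, matplotlib 3.10.9 and Python 3.11.15.

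Same-numbered control and drought libraries, numbered in the labels, deviated from their group means together over all rows (r of 0.328, 0.412 and 0.258). On that ground the numbers were taken to pair them. Over the loci chosen by the rule alone, r was 0.111, 0.399 and 0.371. There control 1 went with drought 3 (r of 0.252) more than with drought 1. The main fit was unpaired and gave the calls, standard errors and p-values, except where the block is named. A fit with a replicate block was an alternative. Other alternatives changed the pseudocount, filter, scaling, trend, threshold, feature unit or library set. No libraries were identical. The loci and lists were chosen with earlier results of these data known. Named are the 10 most abundant loci, all called ones, those in runs, and those next to the limits of the rule, with at most 2 unnamed identifiers each way; others are named after their values were seen. No source used here pairs these locus names with products or sequences, so product classes were not applied and no roles are given.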

Additional observations from a re-analysis of the deposited data

How the results depend on the processing

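Membership depended on the limits of the rule: 146 loci at a minimum mean of 5 FPKM, 50 at a minimum of 20, 131 with under 0.1 FPKM allowed in N22 and 173 with under 1 allowed. Leaving out 1 of the 12 libraries gave 84 to 100 loci, the most without N22 drought 3. Leaving out 1 IR64 library gave 2 to 4 risen and 4 to 8 fallen loci of the 89 (4 and 8 without drought 3, 4 fallen without control 2), and 746 to 1383 risen and 827 to 1335 fallen over all rows. With the replicate block 4 rose and 6 fell, beside 1069 and 1017 over all rows. Beyond LOC_Os04g30290 the block ended no other call. Without a filter on low values 4 fell, beside 907 of 36064 rows. By the adjusted p alone 7 rose and 10 fell, beside 2885 and 3439 over all rows. With steps of up to 100 in locus number, 7 loci lay in runs. The causes were not tested, beyond what each setting is built to change. Of the 9 calls, 6 held in all 16 alternatives, while LOC_Os04g30290 held in 10, LOC_Os12g43400 in 9 and LOC_Os12g31690 in 11, these 3 being lost also without the filter (limma adjusted p of 0.0845, 0.0683 and 0.0668). No called locus changed its direction in the alternatives run. Of the 23 loci followed through them, 7 unnamed ones, none of them called, changed sign at least in 1 alternative, 17 changes in all. With 1 library left out, the log2 change of the most abundant locus ran from -0.042 to 1.54. The same range was -0.83 to 1.16 for the locus of rank 2, -0.50 to 0.46 for rank 5, -3.53 to 0.83 for rank 7, -0.28 to 0.34 for rank 8, -0.058 to 0.090 for rank 10 and -0.20 to 0.0042 for rank 87. Scaling turned rank 2 to 0.0094 (median of ratios), and rank 8 to -0.017 and rank 10 to -0.035 (quantile). With FPKM alone, depth and counting error are unknown.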
